A study of Mus musculus with 4 samples.

Results

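The open chromatin of 42 genes of lipid synthesis and of the sebaceous gland was examined in hair follicle stem cells with ATAC-seq, an assay that tags DNA wherever a transposase can reach it. The genes are a list, by name, of regulators, enzymes, lipid droplet proteins and sebocyte markers, drawn up with earlier results of these data known. A peak belonged to a gene when that gene's body was the nearest protein-coding one to the peak summit, at most 100 kb away. Any overlap of 1 bp or more between the wild-type (WT) and double knockout (dKO) lists merged the peaks into a shared region, and the rest were WT-only or dKO-only regions. The 42 genes had 235 of the 70899 regions that lay within 100 kb of any protein-coding gene, and 79122 regions were found in all. At least 1 region was found for 41 of the 42 genes.

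The cells came from male back skin at P70, the 2nd telogen or resting phase of the hair cycle. All mice carried NFIBfl/fl, NFIXfl/fl and R26-YFPfl/fl, which are floxed Nfib and Nfix and a YFP reporter of Cre activity. The 2 WT mice (numbers 13 and 15) had no Cre, and the 2 dKO mice (numbers 14 and 16) also carried Sox9-CreER, an inducible Cre driven by the Sox9 gene. The time of Cre induction is not given in the sources used here. Sorting kept CD34+ and integrin alpha 6+ cells that lacked DAPI and Sca-1 staining, and dKO cells were in addition sorted for YFP, so genotype and YFP gate cannot be told apart.

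Both mice of a genotype contribute to a single deposited peak list, of 68197 peaks for WT and 63548 for dKO. There is no spread between mice, no test between genotypes was possible, and no difference below has a replicate check. Percentages carry Wilson 95% intervals of counting error. The median deposited pileup, the read coverage at a summit, was 73 for WT and 38 for dKO, and the lowest local background was 1.94 times higher in the WT list, so the lists differed in depth if they were called alike. Pileup and fold enrichment over local background are the authors' own values for each peak and are placed side by side, without a ratio between lists. All 10 markers of hair follicle stem cells, among them Cd34, Lhx2 and Lgr5, had shared regions. So did 9 of 10 sebocyte markers, 7 of which belong to the 42 genes. Shared regions were also found for 5 of 5 endothelial, 4 of 5 fibroblast and 4 of 5 melanocyte markers. For adipocyte, interfollicular epidermis and immune markers the counts were 4 of 6, 4 of 6 and 1 of 4. Among all protein-coding genes 14543 of 21887 had a shared region, so having one does not identify a cell type. The adipocyte genes Adipoq and Fabp4 and the sebocyte gene Dgat2l6 had 0 regions. Regions of the 10 stem cell markers numbered 126 for WT and 129 for dKO, and those of the 10 sebocyte markers 23 and 22. The 5 fibroblast markers had 25 for WT and 18 for dKO, the 5 endothelial markers 32 and 30, and the 5 melanocyte markers 38 and 34. Interfollicular epidermis had 11 and 13 over 6 markers, adipocytes 16 and 15 over 6, and immune cells 4 and 5 over 4. The part of other cells in the results was not tested. Lum, Tyr, Flg and Itgam, markers of fibroblasts, melanocytes, epidermis and immune cells, had 0 regions. An open gene need not be transcribed, and in sorted bulk cells a region open in fewer cells cannot be told apart from one less open in each cell.

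Sebaceous glands sit on the upper part of the follicle and are renewed by cells that fill with lipid and burst to release sebum. Fatty acids are built from acetyl-CoA, lengthened by elongases, desaturated, activated to acyl-CoA and joined into triglycerides, wax esters, cholesteryl esters and ceramides. SREBP transcription factors drive the genes of fatty acid and sterol synthesis, and PPAR gamma is a main regulator of sebocyte maturation. NFIB and NFIX, the factors targeted here, bind DNA as dimers to a palindrome of TTGGC and GCCAA with 5 bases between them or, more weakly, to the 5-base core TTGGC alone.

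The 250 bases before a start are shown for 6 genes, chosen after their values were seen. Far1 and Insig1 had the start regions of highest −log10 q of the whole set in both lists, Hmgcs1 held an SREBP element, Acsl3 had the largest excess of WT-only regions, and Far2 and Pparg, of which the first of 3 starts is shown, had no peak at a start. Sequences are from RefSeq (GRCm38.p6, the assembly that mm10 names), written in the direction of transcription. Capitals mark the NFI core TTGGC, or GCCAA where it lies on the opposite strand, and in Hmgcs1 also the SREBP element.
Far1 (chr7:113513584-113513833, plus strand): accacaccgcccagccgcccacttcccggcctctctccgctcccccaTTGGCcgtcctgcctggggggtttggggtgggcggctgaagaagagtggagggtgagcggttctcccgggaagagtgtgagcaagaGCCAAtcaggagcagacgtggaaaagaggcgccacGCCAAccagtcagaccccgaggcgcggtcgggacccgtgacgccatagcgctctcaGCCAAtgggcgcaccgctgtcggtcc
Insig1 (chr5:28071162-28071411, plus strand): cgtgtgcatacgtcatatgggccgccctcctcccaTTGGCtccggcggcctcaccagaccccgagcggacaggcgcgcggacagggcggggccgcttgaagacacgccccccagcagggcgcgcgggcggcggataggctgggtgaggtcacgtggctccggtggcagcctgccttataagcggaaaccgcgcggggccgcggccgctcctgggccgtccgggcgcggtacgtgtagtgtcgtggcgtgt
Hmgcs1 (chr13:119690101-119690350, plus strand): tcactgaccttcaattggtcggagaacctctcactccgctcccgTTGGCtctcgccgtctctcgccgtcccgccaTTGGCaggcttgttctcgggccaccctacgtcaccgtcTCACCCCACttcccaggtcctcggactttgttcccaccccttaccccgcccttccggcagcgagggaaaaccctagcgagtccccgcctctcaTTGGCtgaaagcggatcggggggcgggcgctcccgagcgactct
Acsl3 (chr1:78657575-78657824, plus strand): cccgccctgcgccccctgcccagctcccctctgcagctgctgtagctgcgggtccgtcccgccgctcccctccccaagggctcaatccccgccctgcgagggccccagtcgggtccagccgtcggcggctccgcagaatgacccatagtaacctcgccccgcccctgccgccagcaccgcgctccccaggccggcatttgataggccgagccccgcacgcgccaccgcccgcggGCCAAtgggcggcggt
Far2 (chr6:148047166-148047415, plus strand): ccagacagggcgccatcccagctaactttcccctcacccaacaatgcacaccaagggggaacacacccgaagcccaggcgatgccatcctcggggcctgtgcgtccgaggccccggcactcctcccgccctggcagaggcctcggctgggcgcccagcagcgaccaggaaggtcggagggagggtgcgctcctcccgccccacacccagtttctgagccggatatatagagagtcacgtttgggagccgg
Pparg (chr6:115360894-115361143, plus strand): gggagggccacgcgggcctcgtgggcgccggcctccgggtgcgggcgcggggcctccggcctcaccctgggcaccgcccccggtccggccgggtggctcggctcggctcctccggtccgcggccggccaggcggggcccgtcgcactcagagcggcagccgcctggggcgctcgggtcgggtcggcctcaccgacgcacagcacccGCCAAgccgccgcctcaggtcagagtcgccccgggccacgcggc

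The core TTGGC, or its reverse complement, was present before 29 of 43 RefSeq starts of 32 of the lipid genes (67.4%), against 42.95% of 21263 starts of protein-coding genes. Among starts with a peak in both lists it was present in 22 of 33 for lipid genes (66.7%) and in 45.2% for all genes. Among starts with no peak it was present in 6 of 9 for lipid genes, also 66.7%, and in 40.1% for all genes. The 43 starts are not independent, since 8 genes have more than 1. Far1 had 4 matches and Hmgcs1 and one start of Mgst1 had 3 each, while the windows of Far2 and Fasn had none. The full palindrome was in 0 of the 43 windows and in 0.0329% of all. The SREBP element TCACNCCAC was in 2 lipid windows, before Hmgcs1 (137 bases before the start) and before the inner start of Acsl1 (76 bases before it), and in 1.01% of all windows. The PPAR direct repeat, AGGTCA written 2 times with 1 base between, was in 0 lipid windows, against 0.0423% of all windows. The E-box CACGTG was in 2 lipid windows, before Insig1 and Elovl5 (4.65%, against 6.63% of all). The NF-Y box CCAAT was in 48.8% of lipid and 35.4% of all windows, and its reverse complement ATTGG shares bases with TTGGC wherever the letters ATTGGC occur. The GC box GGGCGG was in 60.5% and 42.6%. All motifs were searched on both strands, and a match of letters is not a bound site.

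Starts of lipid genes were mostly open in both genotypes. Of the 43 starts, 33 (76.7%, interval 62.3 to 86.8) were touched by a peak of both lists, against 55.5% of all protein-coding starts. No start was touched in the WT list alone, which with 43 starts allows a share of up to 6.98%, and 1 was touched in the dKO list alone (2.33%). Over all protein-coding starts these shares were 1.60% and 1.15%. The start touched for dKO alone was Elovl6, whose start lies in a shared region of which the dKO peak alone reached it. The remaining 9 starts (20.9%, against 41.8% of all) had no peak: all 3 of Pparg, both of Cidec, 1 of 3 of Insig2, and the single listed starts of Acaca, Acacb and Far2. The strongest start was that of Far1, a reductase that makes fatty alcohols for wax esters and ether lipids, with a pileup of 872 and a fold enrichment of 10.9 for WT and 461 and 12.5 for dKO. It was within the strongest 0.249% of the WT list and 0.279% of the dKO list. Its relative Far2, better known from sebaceous glands, had no peak at its start. No region inside its body counted for Far2, and its 3 shared regions and 1 dKO-only region lay 74.7 kb or more away. Peaks in the stretch where Far2 overlaps Ergic2 could count for Ergic2 and were not checked. The Acsl3 start was also strong in both lists, with folds of 6.50 and 10.07, but its region counted for Utp14b, a gene that shares this start.

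Taken over all 42 genes, the region classes were close to those of all protein-coding genes. Shared regions were 165 of 235 (70.2%, interval 64.1 to 75.7), against 65.95% over all genes. WT-only regions numbered 42 (17.9%, 13.5 to 23.3), against 21.2% over all genes, and dKO-only regions 28 (11.9%, 8.37 to 16.7), against 12.8%. The 3 values of all genes lie inside the intervals. Of the 42 genes, 12 had more WT-only than dKO-only regions, 7 had more dKO-only ones, 5 had equal numbers above 0, 17 had shared regions alone and Pparg had none. More WT-only regions were thus found in 28.6% of the lipid genes (34.2% of all genes with a region), more dKO-only ones in 16.7% (16.5%), and shared regions alone in 40.5% (43.5%). The difference was at least 2 regions towards WT in 6 genes (14.3%, against 14.1% of 15650 genes with a region) and towards dKO in 4 genes (9.52%, against 5.45%). Region number per gene ran from 0 to 18. Among the 8 lipid genes with at least 10 regions, 3 leaned towards WT by 2 or more and 2 towards dKO, where 47.6% and 18.2% of all such genes did. Acsl3 alone carried 9 of the 42 WT-only regions and Far1 5 of the 28 dKO-only ones. The share of WT-only minus that of dKO-only regions came to 5.96 points (interval −0.979 to 12.9), 2.24 points without Acsl3 and 8.41 without Far1, against 8.35 over all genes.

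**Figure D1:**
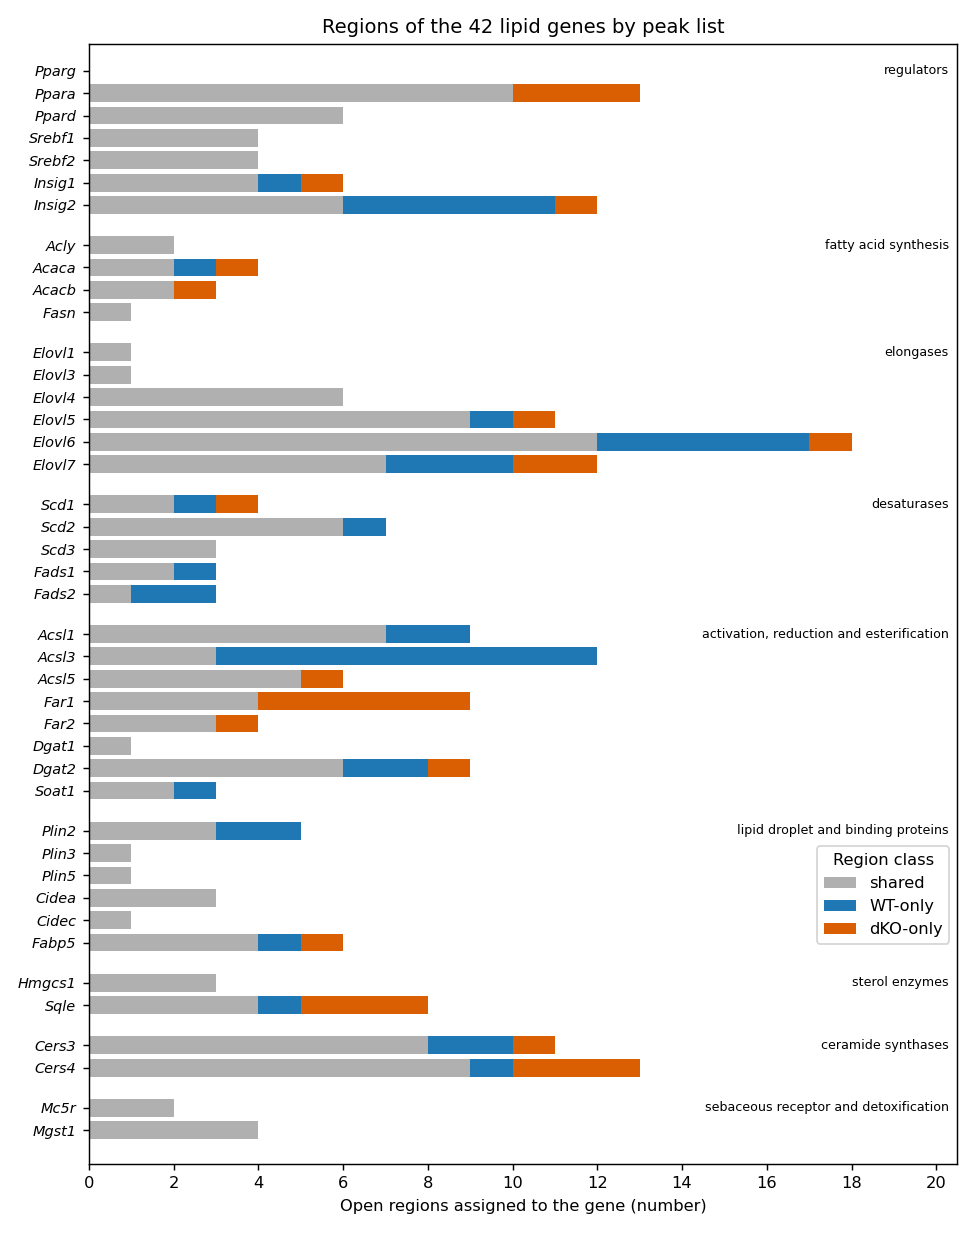
Number of open regions (x axis) of each of the 42 lipid genes, grouped by role, with the shared, WT-only and dKO-only parts stacked. Grey shared regions make up 165 of 235, the blue WT-only part is longest in Acsl3 (9), and the orange dKO-only part is longest in Far1 (5).

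The regulators had 34 shared, 6 WT-only and 5 dKO-only regions, while the gene best known as the sebocyte regulator had none. WT-only regions were 13.3% (interval 6.26 to 26.2) and dKO-only ones 11.1% (4.84 to 23.5). The 21.2% and 12.8% over all genes lie inside these intervals. Pparg (gene 19016, chromosome 6, 115360879 to 115490404) had 0 summits inside its body in either list, and the nearest peak before it was 133 kb away, next to Syn2, in both lists. Ppara, a nuclear receptor that drives fatty acid oxidation, had 10 shared, 0 WT-only and 3 dKO-only regions. Of these 13, 12 lay upstream of the gene, between genes, and the dKO-only ones were 48.1 to 72.3 kb away, in the same stretch as shared regions. Their dKO folds were 2.80, 2.97 and 4.65, and those of the shared regions ran from 2.82 to 8.10 in the dKO list. Ppard, the broadly expressed member of the family, had 6 shared regions, and Srebf1 and Srebf2, which encode the SREBPs, had 4 each; none of the 3 had a region of 1 list alone.

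Insig1 and Insig2 encode proteins of the endoplasmic reticulum that hold back SREBP activation when sterols are plentiful. The Insig1 start region (chromosome 5, 28070393 to 28072481) had a pileup of 728 and a fold of 9.68 for WT and 319 and 10.7 for dKO. Insig1 had 4 shared regions and 1 of each single-list class. Insig2 had 6 shared, 5 WT-only and 1 dKO-only regions. Its start region was among the strongest 5.16% of the WT list and 3.99% of the dKO list, with folds of 11.3 and 12.7. The WT-only regions lay 11.4 to 68.0 kb outside the gene, with pileups of 19 to 33 and folds from 2.22 to 5.41, weaker within the list than the shared ones at 5.72 to 13.6. The dKO-only region (chromosome 1, 121226422 to 121227073), 77.7 kb from the gene, had a pileup of 22 and a fold of 6.17. Where Insig2 regions were shared, the peaks were not always alike. A region 53.7 kb from the gene had a fold of 8.87 for WT and 2.68 for dKO, and one 2.73 kb away had 5.72 and 10.2.

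**Figure D2:**
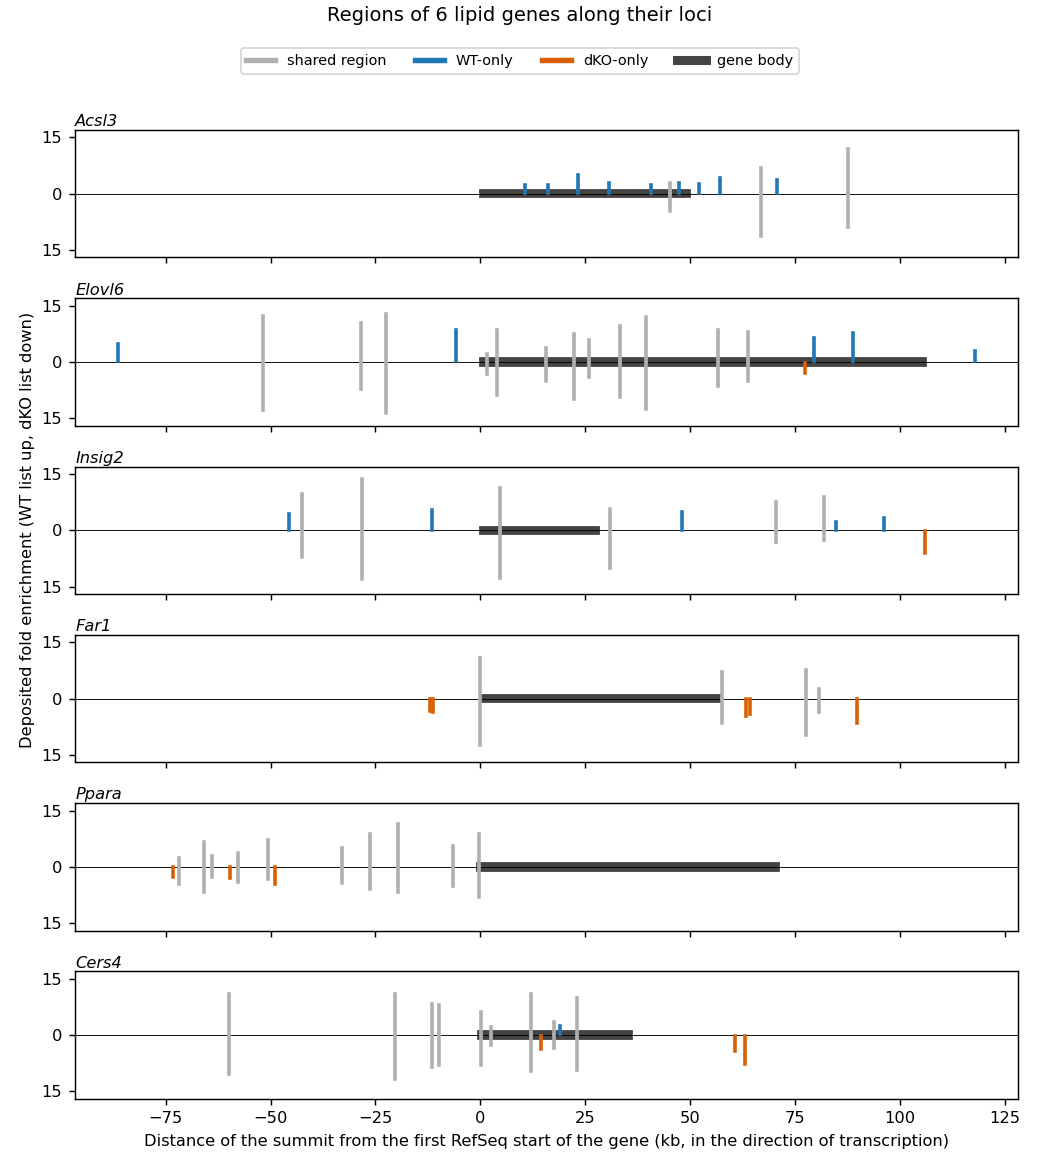
Summits of the regions of 6 lipid genes (x axis, kb from the first RefSeq start in the direction of transcription; dark bar, gene body), with the deposited fold enrichment drawn upwards for the WT list and downwards for the dKO list. The 9 WT-only regions of Acsl3 run through and past its body with WT folds of 2.26 to 4.87, and the 5 dKO-only regions of Far1 and 3 of Ppara lie outside the gene bodies.

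The 4 fatty acid synthesis genes had 10 regions, of which 7 were shared, a share near the 65.95% over all genes. Acly, which makes cytosolic acetyl-CoA, had 2 regions and Fasn, the fatty acid synthase, had 1, all shared. The Fasn region, at its start, had folds of 9.01 for WT and 9.90 for dKO. Acaca, the acetyl-CoA carboxylase of fatty acid synthesis, had 2 shared, 1 WT-only and 1 dKO-only regions along its body of 272 kb. Acacb, the carboxylase that controls fatty acid oxidation, had 1 dKO-only and 2 shared regions.

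The elongases held 36 shared, 9 WT-only (18.4%, interval 9.98 to 31.4) and 4 dKO-only regions (8.16%, 3.22 to 19.2). Over all genes these shares were 21.2% and 12.8%, inside both intervals. Single-list regions were confined to Elovl5, Elovl6 and Elovl7 among the 6. Those genes had 11, 18 and 12 regions, against 1 for Elovl1, 1 for Elovl3 and 6 for Elovl4. Of all genes with at least 10 regions, 0.603% had shared regions alone. Elovl6, which lengthens saturated and monounsaturated C16 acids in fatty acid synthesis, had the most regions of all 42 genes, with 5 WT-only, 1 dKO-only and 12 shared. Its strongest shared region, 3.93 kb behind the start, had folds of 8.52 and 8.84. A WT-only region 5.71 kb upstream of the start (chromosome 3, 129526023 to 129527317) had a pileup of 92 and a fold of 8.52, within the strongest 38.6% of the WT list. The single dKO-only region had a pileup of 10 and a fold of 2.95, ranked at 98.5% of its list from the strongest. Elovl7, an elongase of long saturated acids, had 7 shared, 3 WT-only and 2 dKO-only regions, and 5 of the 12 followed each other within 13.7 kb past the gene's far end. Among those, the WT-only regions at 108291104 to 108291652 and 108297413 to 108298006 on chromosome 13 had folds of 4.36 and 6.03, and the dKO-only region between them had a fold of 3.49 in its list. Elovl5, the polyunsaturated acid elongase, had 9 shared regions and 1 of each other class, and its start had folds of 13.6 in WT and 15.5 in dKO. Elovl4, needed for the ultra-long acids of skin barrier ceramides, had 6 regions, all shared. Elovl1, an elongase of very long acids, had 1 shared region, and so did Elovl3, an elongase of sebaceous and brown fat cells. The dKO summit in the Elovl3 region lay nearer to Pitx3.

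The desaturases had 14 shared, 5 WT-only and 1 dKO-only regions. Their shares were 25.0% WT-only (interval 11.2 to 46.9) and 5.0% dKO-only (0.888 to 23.6). Both intervals cover the values over all genes, 21.2% and 12.8%. Scd1, Scd2 and Scd3, which put the double bond into stearic and palmitic acid, lie in a cluster on chromosome 19 together with Scd4, and the 14 regions of the 3 genes over 206 kb were 11 shared, 2 WT-only and 1 dKO-only. Scd4, which is not among the 42 genes, had 1 dKO-only region. The WT-only region with the highest −log10 q of the whole set lay 21.3 kb from Scd1, which acts in sebaceous glands (chromosome 19, 44373068 to 44373393), with a pileup of 81, a fold of 13.04 and a −log10 q of 63.2, within the strongest 34.6% of the WT list. It was 326 bp long, and no dKO peak overlapped it. A region at an end of Scd1 was shared, with folds of 11.0 and 11.8. The start region of Scd3, a desaturase of the sebaceous gland, was shared with folds of 12.5 and 13.6. Fads1 and Fads2, the desaturases of polyunsaturated acids, had 1 and 2 WT-only regions, no dKO-only ones, and 2 and 1 shared. A WT-only region in the Fads2 body (chromosome 19, 10070112 to 10071573) had a fold of 7.47, as high as the 7.47 of the shared region at its start.

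Genes of activation, reduction and esterification had 31 shared, 14 WT-only and 8 dKO-only regions, and Acsl3 and Far1 among them had the largest net counts of all 42 genes. For the whole role, 26.4% were WT-only (interval 16.4 to 39.6) and 15.1% dKO-only (7.85 to 27.1). These intervals cover the 21.2% and 12.8% over all genes. Acsl3 (gene 74205, chromosome 1, 78657825 to 78707743) encodes an acyl-CoA synthetase of the endoplasmic reticulum and lipid droplets. It had 3 shared and 9 WT-only regions and no dKO-only one. A net count of at least 9 towards WT was found for 50 of 15650 genes (0.319%). Only genes with at least 9 regions can reach it. Acsl3 had 12, while the median of the 15650 genes was 2 and 1823 of them had at least 10. The net count of Acsl3 fell to 5 when WT pileups were scaled down to the background level of dKO. It was 4 when both lists had 1 length, and 4 when peaks needed a q of at most 1e-05. The 9 regions had folds from 2.26 to 4.87 and lay between the strongest 65.5% and 99.7% of the WT list, so all were in its weaker part, and 6 of them were inside the gene body. The shared regions had WT folds of 2.95, 6.80 and 11.9 and dKO folds of 4.57, 11.3 and 8.96. Far1 (gene 67420, chromosome 7, 113513719 to 113571506) had 4 shared and 5 dKO-only regions and no WT-only one. A net count of at least 5 towards dKO was found for 102 of 15650 genes (0.652%), and only genes with at least 5 regions can reach it. The excess of dKO-only regions at Far1 was 2 when peaks needed a q of at most 1e-05. Its 5 dKO-only regions lay 5.53 to 32.1 kb outside the body, were 228 to 385 bp long, and had folds of 3.22 to 6.44, between the strongest 61.5% and 96.2% of the dKO list. A further strong shared region lay 19.9 kb past the Far1 body, with folds of 7.71 and 9.61. Acsl1, the main long-chain synthetase of fat-storing cells, had 7 shared, 2 WT-only and 0 dKO-only regions, and Acsl5, a synthetase best known from intestine, had 5, 0 and 1. Dgat1, which adds the last acyl chain of triglycerides, had 1 shared region with folds of 14.7 and 16.6, and Dgat2, which does the same reaction, had 2 WT-only, 1 dKO-only and 6 shared. Soat1, the cholesterol ester-forming enzyme, had 1 WT-only and 2 shared regions, the former in its body with a fold of 6.39.

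Lipid droplet and binding proteins had 13 shared, 3 WT-only and 1 dKO-only regions. The WT-only share was 17.6% (interval 6.19 to 41.0) and the dKO-only share 5.88% (1.05 to 27.0). Both intervals cover the values over all genes, 21.2% and 12.8%. Plin2, the coat protein of droplets in most cells, had 2 WT-only and 3 shared regions. A WT-only region 13.9 kb upstream of it (chromosome 4, 86683725 to 86684461) had a pileup of 139 and a fold of 4.99. A shared region 26.8 kb away had folds of 13.5 for WT and 5.37 for dKO, while the Plin2 start had 9.87 and 12.9. Plin3, Plin5, Cidea and Cidec, proteins of the droplet surface, had 1, 1, 3 and 1 regions, all shared. Fabp5, the fatty acid binding protein of epidermal cells, had 4 shared, 1 WT-only and 1 dKO-only regions. A shared region 79.4 kb from Fabp5 was weak in the WT list, with a pileup of 22 and a fold of 3.66, and stronger within the dKO list, with 86 and 13.1.

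The sterol enzymes had 7 shared, 1 WT-only and 3 dKO-only regions. For ceramide synthases these counts were 17, 3 and 4. WT-only shares were 9.09% (interval 1.62 to 37.7) for sterol enzymes and 12.5% (4.34 to 31.0) for ceramide synthases, against 21.2% over all genes. The dKO-only shares were 27.3% (9.75 to 56.6) and 16.7% (6.68 to 35.9), against 12.8%. All 4 intervals cover the values over all genes. Hmgcs1, which starts cholesterol synthesis in the cytosol, had 3 shared regions, and its start had a pileup of 540 and a fold of 8.42 in WT and 258 and 10.1 in dKO. Sqle, the squalene epoxidase, had 4 shared, 1 WT-only and 3 dKO-only regions, the dKO-only ones 32.4 to 91.3 kb from the gene with folds of 4.29 to 4.83. A shared region 77.2 kb from Sqle had folds of 2.70 and 12.3. Cers3, which makes the ultra-long ceramides of the barrier, had 8 shared, 2 WT-only and 1 dKO-only regions. Cers4, a ceramide synthase of follicle and sebaceous gland, had 9, 1 and 3. The dKO-only region with the highest −log10 q of the set lay 26.8 kb past Cers4 (chromosome 8, 4556184 to 4556979), with a pileup of 32, a fold of 7.64 and a −log10 q of 18.9. Mc5r, the melanocortin receptor of sebocytes, had 2 regions and Mgst1, a glutathione transferase of membranes, had 4, all shared, and the one at Mc5r's end had folds of 16.99 and 16.4.

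The position of a region went with its class, in lipid genes as in all genes. At gene ends, within 1 kb of either end of any protein-coding gene, 32 of 34 lipid gene regions were shared, against 90.2% of 12748 in all genes. The other 2 were in 1 list only (5.88%, against 9.77%): both were WT-only (against 6.22%) and 0 were dKO-only (up to 8.82% allowed, against 3.55%). Of these, the first lay 0.874 kb past the far end of Elovl5 and the other inside Acsl3, near the end of Utp14b. Inside gene bodies 20 of 95 were WT-only (21.1%, 14.1 to 30.3, against 25.6%) and 9 dKO-only (9.47%, 5.06 to 17.03, against 14.4%). Between genes 20 of 106 were WT-only (18.9%, 12.6 to 27.4, against 22.8%) and 19 dKO-only (17.9%, 11.8 to 26.3, against 15.7%). Regions between genes made up 67.9% of the 28 dKO-only and 47.6% of the 42 WT-only regions of lipid genes, against 39.8% and 35.1% over all genes. Lipid genes had 45.1% of their regions between genes, all genes 32.6%.

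**Figure D3:**
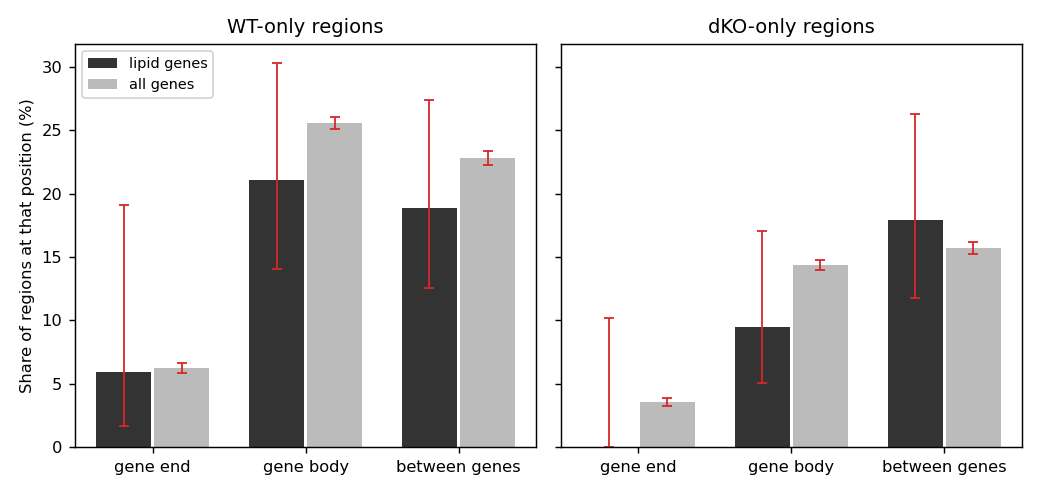
Share of regions (y axis, percent) that were WT-only (left) or dKO-only (right) at gene ends, in gene bodies and between genes, for lipid genes and all genes, with Wilson 95% intervals in red. For gene bodies the interval of the lipid genes for WT-only regions covers the value of all genes, 21.1% against 25.6%, and at gene ends no lipid gene region was dKO-only.

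Single-list regions were weak and short. In the WT list the median fold was 8.15 for the 165 shared and 4.30 for the 42 WT-only regions of lipid genes, with median peak widths of 935 and 486.5 bp. In the dKO list it was 7.91 for shared and 4.10 for the 28 dKO-only regions, with 752 and 372.5 bp. Over all genes these medians were 7.55 and 4.07 for WT and 7.49 and 4.08 for dKO. Of the WT-only regions 8 were in the stronger 50% of their list (19.05%, against 11.96% over all genes), at Scd1, Elovl6, Plin2, Elovl7 with 2, Soat1, Fads2 and Fabp5. Of the dKO-only regions 1 was, at Cers4 (3.57%, against 8.53%). In the strongest 20% of each list every lipid gene region was shared, 34 in WT and 33 in dKO, where 0.691% and 0.183% over all genes had no partner. In the weakest 20% 53.1% of 32 WT regions (36.4 to 69.1) had no dKO peak, against 58.5% over all genes, and 53.8% of 26 dKO regions (35.5 to 71.2) had no WT peak, against 47.4%. In shared regions the summits of the lists were a median of 45 bp apart, and 144 of 165 (87.3%) were within 200 bp.

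**Figure D4:**
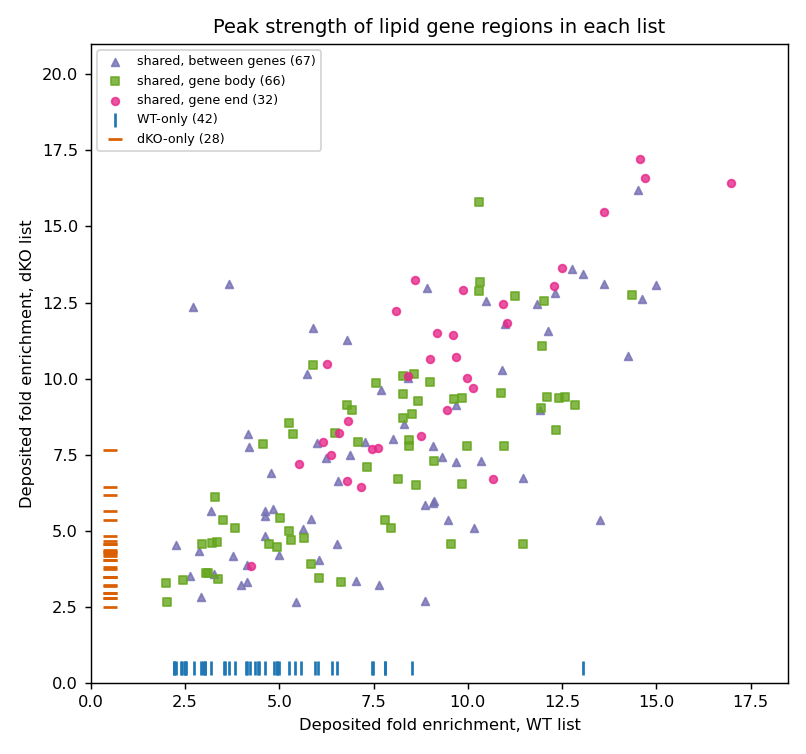
Deposited fold enrichment of each lipid gene region in the WT list (x axis) and the dKO list (y axis), with shared regions by position and single-list regions as ticks along the axes. Single-list regions lie mostly at low folds, with medians of 4.30 for WT-only and 4.10 for dKO-only, and the WT-only tick at 13.04 is the region near Scd1.

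**Figure D5:**
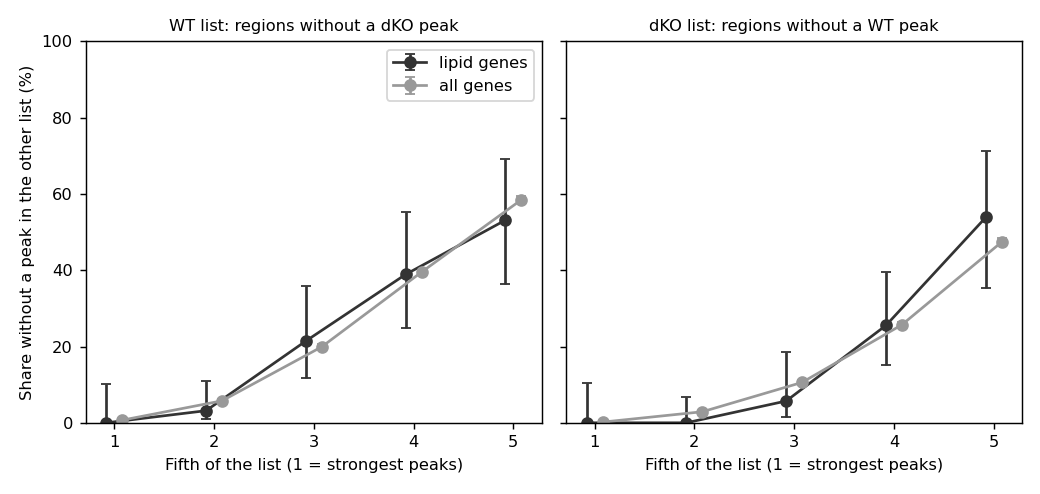
Share of regions without a peak in the other list (y axis, percent) by 20% step of peak strength (x axis, 1 the strongest), for the WT list (left) and the dKO list (right), with Wilson 95% intervals. The lipid genes run close to all genes, from 0% in the strongest step of both lists to 53.1% in WT and 53.8% in dKO in the weakest.

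Other genes of the same pathways were counted in separate lists, and 92.9% of all genes with a region had a shared one. Of 20 further genes of sterol synthesis and uptake, 19 had a region and all of these had a shared one. Their 64 regions were 9.38% WT-only and 12.5% dKO-only, against 21.2% and 12.8% over all genes. Sc5d, a sterol desaturase of cholesterol synthesis, had 9 shared, 3 WT-only and 1 dKO-only regions. Of 23 further glycerolipid, droplet and lipolysis genes, 19 had a region and 17 of these a shared one, and of their 93 regions 19.4% were WT-only and 17.2% dKO-only. Differences of 2 or more were found towards WT for Mogat1 (4 and 0), Lpin1 (2 and 0) and the wax synthase gene Awat2 (2 and 0), and towards dKO for Acsl4 (0 and 4) and Cd36 (1 and 3). The 60 regions of 6 nuclear receptors of lipids and partners were 11.7% WT-only and 25.0% dKO-only. Among them Ppargc1a, a coactivator of PPARs, had 13 shared, 2 WT-only and 10 dKO-only regions. This 1 gene thus held 10 of the 15 dKO-only regions of the list. Rxra, the partner of PPARs, had 19 shared, 5 WT-only and 4 dKO-only regions.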

How the data were processed

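Per the labels, the ATAC-seq libraries of 2 WT and 2 dKO mice gave paired reads of 50 bases. The submitters' processing notes list MACS2, Picard and Bowtie2 2.2.9, and the builds mm10 and GRCm38, without roles. The way mice were combined, reads shifted or duplicates handled is not given in the sources used here. As deposited, signal is the pileup at each summit, and the deposited fold enrichment is a ratio over local background. The 2 columns of −log10 p and −log10 q deposited by the authors had damaged header cells and were identified by position. The Poisson p recomputed from pileup and fold matched the former within 0.01 for 99.98% of 62811 WT peaks checked. Positions are in mm10, as the authors gave them.

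Mitochondrial peaks (5 WT, 3 dKO) were left out. A region was placed by the summit of its peak with the highest −log10 q; of several gene bodies around a summit the shortest was taken (4 lipid gene regions). Genes and starts are RefSeq GRCm38.p6; 32 of 42 genes matched a start entry. Starts were called open where a peak touched the window from 250 bases before to 50 after. Without a genome sequence, regions were not searched for motifs. Region joining recovered 3000 of 3000 simulated classes and 500 of 500 placements and matched bedtools 2.31.1 with a difference of 0 overlapping peaks. In the simulation every partner overlapped and neighbours lay too far apart to merge, so chained merges, split peaks and overlapping genes were not tried. Python 3.11.15 and scipy 1.17.1 were used. Each gene was given its counts; genes differing by 2 or more regions, those with the most regions, the 5 strongest regions per class and regions at gene ends were described by their own values or by their range. Members and lists were chosen with earlier results of these data known. Intervals measure counting error alone, as if regions were independent, and an upper limit for a share of 0 is 3 counts of the total. Alternatives changed the overlap, the threshold, the placement and the WT depth.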

Additional observations from a re-analysis of the deposited data

How the results depend on the processing

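The WT-only, dKO-only and net shares of lipid gene regions stayed within their counting intervals in most of 10 other settings and in 2 chosen after seeing the data (Acsl3 or Far1 left out). With summits within 200 bp in place of overlap, WT-only regions were 23.8% and dKO-only 20%, against 25.8% and 19.2% over all genes. Counting single-list peaks of the stronger 50% only, they were 4.60% and 0.575%, against 3.60% and 1.58%, and the genes leaning by 2 or more were 1 towards WT and 0 towards dKO. With all genes within 10 kb the dKO-only share was 7.53%, against 10.3% over all genes. Genes leaning towards dKO by 2 or more were 1 with nearest genes within 20 kb and 1 with all genes within 10 kb. The difference of the shares was 0 points once both lists were cut to 1 length, and 3.06 points after thinning WT pileups to the dKO background level, against 2.58 and 6.67 points over all genes. The net counts of the 10 genes that leaned by 2 or more changed sign in none of these settings, but those of 8 of the 10 reached 0 in at least 1. The exceptions were Elovl6, from 1 to 4, and Fads2, from 1 to 2. Those of Acsl3 and Far1 were 0 among the stronger 50%, by construction, since all their single-list peaks are weaker. Neither mice nor replicates could be left out, as each genotype has 1 list. No paired analysis was possible because the mice carry no shared numbers and each genotype has 1 list.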
